A study of Homo sapiens with 40 samples.

Results

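The phagocyte NADPH oxidase was followed here through 9 genes of the 60504 measured: NCF1, its near-identical copies NCF1B and NCF1C, NCF4, CYBB, CYBA, RAC2, RAC1 and CYBC1. The set was chosen by a measured value, the lower NCF1 level in TREM2-R47H than in WT, so the values of that comparison are given as a description, with no test read from them for any gene. All 9 genes passed the filter on low values, which kept 14855 genes.

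The oxidase is the enzyme with which macrophages, neutrophils and microglia make superoxide. A membrane core of gp91phox (CYBB) and p22phox (CYBA) carries electrons from NADPH to oxygen, and it works only after a cytosolic complex that includes p47phox (NCF1) and p40phox (NCF4) moves to the membrane together with a RAC GTPase. Loss of function of a subunit causes chronic granulomatous disease, in which phagocytes ingest microbes but make too little superoxide to kill them. In microglia the enzyme is known as a source of oxidant after phagocytic or inflammatory stimuli.

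The human microglia-like cells (hMGLs) were differentiated from the established embryonic line H9 by way of blood progenitors and 28 days of culture with IL-34, TGF-beta and M-CSF, with CD200 and CX3CL1 present for the final 3 days. The edited lines were FACS-isolated H9 clones made with CRISPR/Cas9, each homozygous for its change: TREM2-KO with 8 libraries, TREM2-R47H with 7, SORL1-KO with 7 (the labels name the change R744X), SORL1-A528T with 7, CD33-SNP with 2 and INPP5D-SNP with 2 (an A allele, at a site where H9 itself is heterozygous). WT, the unedited H9, had 7 libraries. The number of clones behind each line, and whether libraries of a line came from separate differentiations, is not stated by the labels. The p-values therefore rest on library-to-library spread alone, which could be technical, and an effect of an edit cannot be told apart from one of a clone.

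The values are TPM, which are scaled to gene length and to a fixed total per library. They keep no read count, so a library's own depth is unknown; per the labels, depth ran from 39.2 M to 64.6 M reads around an average of 45.13 M. TREM2 had 24.6 to 46.5 TPM in the TREM2-KO libraries, against 295 to 585 TPM in WT, and SORL1 averaged 16.1 ± 3.00 TPM in SORL1-KO and 33.3 ± 9.74 TPM in WT (SD, n = 7 each). All 12 microglia and macrophage markers listed averaged at least 1 TPM in every group. Of 12 listed neutrophil and granule markers, ELANE, PRTN3, CTSG and LCN2 were at 0 in all 40 libraries, while FCGR3B and CSF3R passed the filter. These 12 summed to 21.4 to 62.0 TPM in TREM2-R47H and 30.1 to 100 TPM in SORL1-KO, and 1 or 2 averaged at least 1 TPM in each group. Replicate 8 of TREM2-KO, replicate 7 of SORL1-KO and replicate 7 of SORL1-A528T stood apart, with a mean Spearman correlation with their own group of 0.933 to 0.941, against at least 0.949 for the other libraries. They were taken as the 3 lowest. Replicate 4 of TREM2-KO came next, at 0.949, and stays in the runs without the 3 libraries. Over 4324 well-expressed genes, the SD of its log2 ratios was 0.271 to replicate 8 and 0.455 to 0.506 to the other TREM2-KO libraries. Replicates 5 and 6 were the closest pair of libraries in each group of 7 or 8, and what the replicate numbers stand for is not given. Counts of members below are also given without the 3 libraries wherever these change a call.

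NCF1 encodes p47phox, the organizer that brings the cytosolic complex to the membrane once it is phosphorylated. It lies in the Williams-Beuren region at 7q11.23, between copies that arose by duplication. In GENCODE release 29 on GRCh38, NCF1 occupies chr7:74773962-74789315 on the plus strand and is protein coding, NCF1B occupies chr7:73220624-73235945 on the plus strand, and NCF1C occupies chr7:75156639-75172044 on the minus strand. Both copies are annotated as pseudogenes. The classic difference between them is a GT repeat at the start of exon 2, where the copies lack a GT unit and their reading frame shifts. It is shown here, with the GT units in capitals, because it is the best-known mark that separates reads of the gene from reads of its copies.
NCF1-201: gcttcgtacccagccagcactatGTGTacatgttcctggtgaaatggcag
NCF1B-201: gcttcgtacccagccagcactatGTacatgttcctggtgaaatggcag
NCF1C-201: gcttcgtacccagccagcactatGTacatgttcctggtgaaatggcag
The NCF1 transcript holds 2 GT units at chr7:74777267-74777270, and the transcripts NCF1B-201 and NCF1C-201 hold 1, at chr7:73223878-73223879 and chr7:75168709-75168710. In a further annotated transcript, NCF1B-203, the exon 1 to exon 2 junction gives 2 units, 1 from each exon. The rest of the transcripts is close to the same: of the 1297 windows of 100 bases in NCF1-201, 837 (64.5%) occur unchanged in an NCF1B or NCF1C transcript, and of the 1247 windows of 150 bases, the length of 1 read, 566 (45.4%) do. Reads from such stretches can only be shared out between the genes by estimation. The values of NCF1, NCF1B and NCF1C are uncertain one by one, and their 3 calls in a comparison are 1 signal.

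The level of NCF1 was lowest in TREM2-R47H and highest in TREM2-KO, the other line edited at TREM2. NCF1 had 300, 407 and 441 TPM as the lowest, median and highest of the 8 TREM2-KO libraries, 78.8, 111 and 135 TPM in TREM2-R47H, 177, 224 and 236 TPM in SORL1-KO, 192, 260 and 342 TPM in SORL1-A528T, and 313, 333 and 413 TPM in WT. The 2 CD33-SNP libraries had 364 and 187 TPM and the 2 INPP5D-SNP libraries 320 and 270 TPM. All 7 TREM2-R47H libraries lay below every other library, and all 7 SORL1-KO libraries lay below every TREM2-KO and every WT library. The group means were 391 ± 52.3 TPM in TREM2-KO, 111 ± 21.4 in TREM2-R47H, 210 ± 25.6 in SORL1-KO, 261 ± 49.7 in SORL1-A528T, 276 ± 125 in CD33-SNP, 295 ± 35.2 in INPP5D-SNP and 357 ± 43.7 TPM in WT (SD, n = 7, with n = 8 for TREM2-KO and n = 2 for the SNP lines). By level the lines ran TREM2-R47H, SORL1-KO, SORL1-A528T, CD33-SNP, INPP5D-SNP, WT and TREM2-KO, from low to high. TREM2-R47H was separated from its neighbour in this order; every later pair of neighbours overlapped.

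NCF1B and NCF1C followed the same order of groups at a lower level. NCF1C averaged 215 ± 16.2 TPM in TREM2-KO, 55.1 ± 15.3 in TREM2-R47H, 109 ± 23.1 in SORL1-KO, 142 ± 33.1 in SORL1-A528T and 193 ± 18.1 in WT (SD, n = 8 for TREM2-KO and n = 7 for the others). NCF1B averaged 138 ± 11.5 TPM in TREM2-KO, 34.9 ± 9.59 in TREM2-R47H, 70.8 ± 16.8 in SORL1-KO, 85.8 ± 20.3 in SORL1-A528T and 123 ± 12.9 in WT, with the same n. In the 2 CD33-SNP libraries NCF1C had 199 and 95.6 TPM and NCF1B 128 and 61.3 TPM, so replicate 2 was near the SORL1-KO level for all 3 genes and replicate 1 near the WT level.

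**Figure D1:**
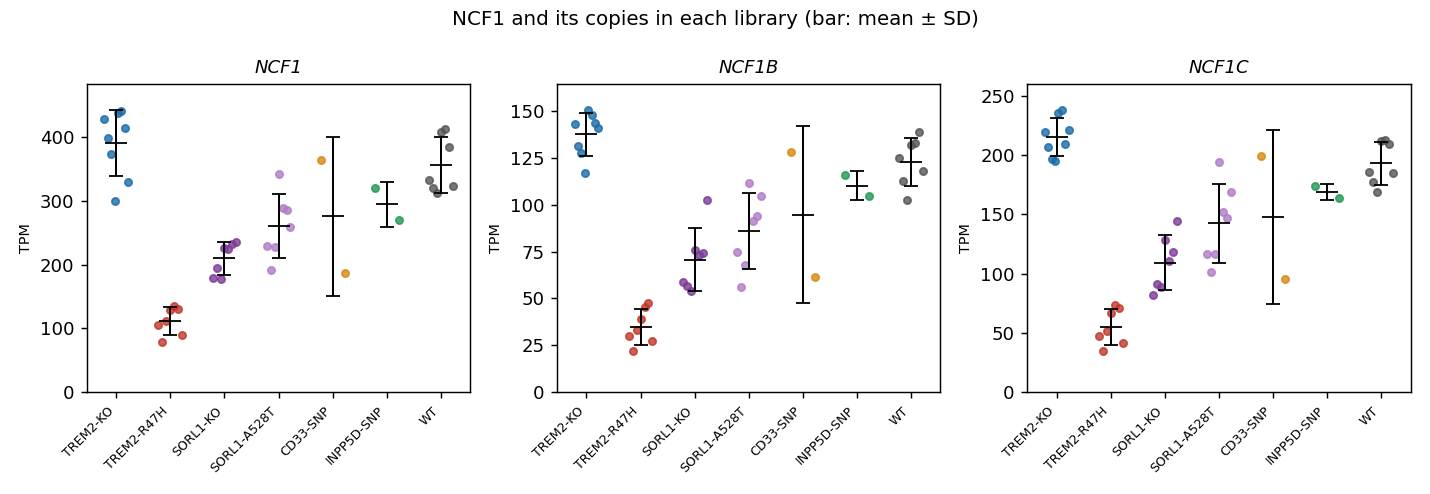
TPM of NCF1, NCF1B and NCF1C (vertical axes, linear from 0) in each library of the 7 groups, with points for libraries and bars for the mean ± SD. TREM2-R47H is lowest in all 3 panels and SORL1-KO the next lowest, with TREM2-KO and WT at the top.

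Within a library, NCF1 made up 47.6% to 58.3% of the summed TPM of the 3 genes over all 40 libraries. Its share averaged 52.4 ± 2.55% in TREM2-KO, 55.7 ± 2.31% in TREM2-R47H, 54.1 ± 2.69% in SORL1-KO, 53.5 ± 2.29% in SORL1-A528T and 52.9 ± 1.16% in WT (SD, n = 8 for TREM2-KO and n = 7 for the others). None of the 8 contrasts without TREM2-R47H passed a two-sided exact permutation test of this share, with an adjusted p of 0.612 in each. The summed TPM was 390 ± 63.4 in SORL1-KO and 673 ± 73.0 in WT (SD, n = 7 each), while the shares differed by 1.20 percentage points. Replicate 7 of SORL1-A528T had a share of 48.6%, replicate 7 of SORL1-KO 48.8% and replicate 8 of TREM2-KO 47.6%, each the lowest of its group. Without these 3 libraries the share was 55.0% in SORL1-KO and 52.9% in WT, and the lowest adjusted p over the 8 contrasts was 0.109 in the exact permutation test.

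**Figure D2:**
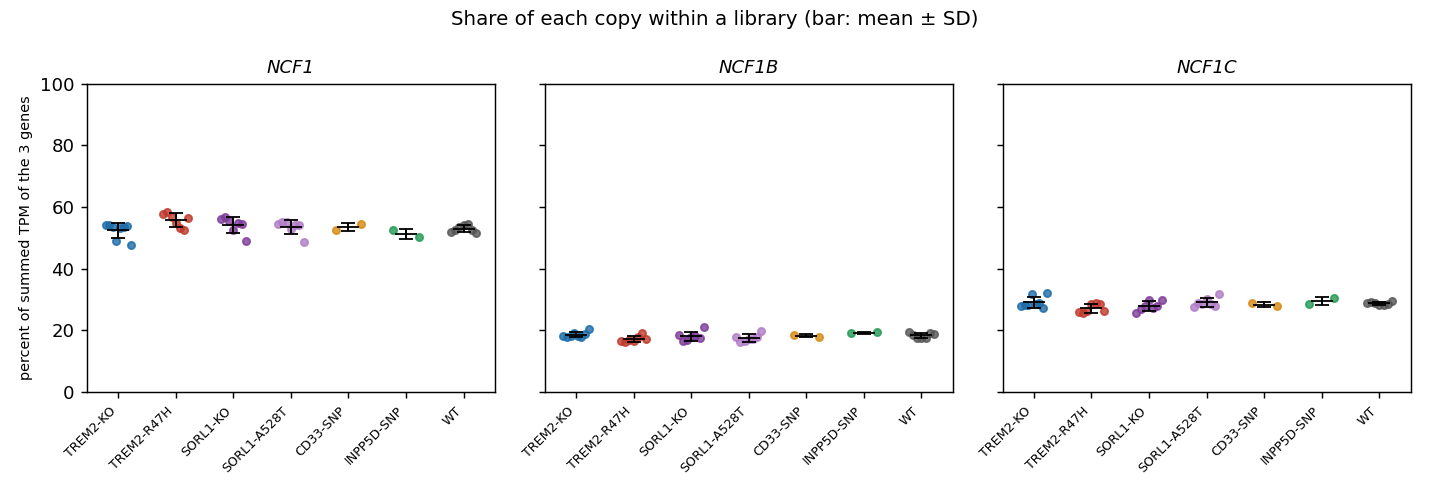
Share of NCF1, NCF1B and NCF1C in their summed TPM (vertical axis, percent from 0 to 100) in each library of the 7 groups, with bars for the mean ± SD. NCF1 takes 47.6% to 58.3% in every library while the sum itself differs between groups.

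In the comparison that chose the set, TREM2-R47H against WT, NCF1 stood at 31.2% of its WT mean (log2 fold change -1.69), NCF1B at 28.3% (-1.83) and NCF1C at 28.5% (-1.83). NCF4, the p40phox subunit, stood at 52.6% (-0.92) and the chaperone gene CYBC1 at 70.7% (-0.51). CYBA stood at 78.1% (-0.36), RAC2 at 82.1% (-0.28), CYBB at 86.7% (-0.23) and RAC1 at 86.7% (-0.21). NCF1, its copies and NCF4 thus had the lowest ratios of the 9, and CYBB and RAC1 the highest. By limma, 6 of the 9 (NCF1, NCF1B, NCF1C, NCF4, CYBA and CYBC1) had an adjusted p below 0.05, where 11.4% of all tested genes did (2.63% higher and 8.77% lower), and nothing is read from that count because the comparison chose the set. Without the 3 libraries that stood apart, none of which belongs to these groups, RAC2 and RAC1 passed as well and the count was 8. It was also 8 with the replicate number, which pairs these libraries, as a block (RAC2 and RAC1 added). Nothing is read from these 2 counts. For 6 genes, NCF1, NCF1B, NCF1C, NCF4, CYBA and RAC2, no TREM2-R47H library overlapped a WT library, where 4.62% of all genes did not overlap, and nothing is read from this count either. NCF1 was 13.4 ± 2.10% of the CYBB level within TREM2-R47H libraries and 36.8 ± 3.07% within WT libraries (SD, n = 7 each), both on the TPM scale, a ratio of the values that chose the set. In these bulk samples, fewer cells of a type and less RNA per cell cannot be told apart. Markers of other cells were lower as well. The 10 monocyte markers summed to 164 to 531 TPM in TREM2-R47H and 367 to 3879 TPM in WT, with a median log2 change of -1.14, and their part in the difference was not tested. The 11 stromal and endothelial markers summed to 134 to 271 TPM in TREM2-R47H and 189 to 3198 TPM in WT, with a median of -2.30 over the 9 kept, 5 of them past the threshold. With the stromal score as a covariate NCF1 stood at -1.57 and CYBC1 at -0.34. CYBC1 then left the count of called members, and nothing is read from that. A lower stromal median was not particular to TREM2-R47H. Against WT it was -2.48 in TREM2-KO, -2.60 in SORL1-KO, -2.58 in SORL1-A528T and -2.06 in CD33-SNP, and 1.755 in INPP5D-SNP.

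TREM2-KO carries the other edit of the same gene, and its NCF1 was not called. NCF1 was 0.13 above WT on the log2 scale (95% interval -0.13 to 0.39, limma adjusted p = 0.781). No member of the 9 had an adjusted p below 0.05 in TREM2-KO against WT by limma, where 1.61% of all genes did (0.283% higher and 1.33% lower), and 3 (NCF4, RAC2 and RAC1) had an unadjusted p below 0.05, as 10.6% of all genes did. The summed TPM of NCF1 and its copies was 744 ± 74.1 in 8 TREM2-KO libraries, against 673 ± 73.0 in 7 WT libraries (SD). Its log2 value had an adjusted p of 0.118 in the two-sided exact permutation test. That test does not use the replicate numbers, which pair the libraries of these groups. Stromal and endothelial markers had a median log2 change of -2.48 in TREM2-KO against WT, and monocyte markers one of 0.51. Their part was not tested. This comparison and the other comparisons with WT share the WT libraries that chose the set.

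SORL1-KO was the line outside the choice of genes in which NCF1 was lowest. The NCF1 level was 210 ± 25.6 TPM in SORL1-KO and 357 ± 43.7 TPM in WT (SD, n = 7 each), with 58.8% of the WT mean and a log2 fold change of -0.76 ± 0.13 (SE, limma adjusted p = 0.00157). NCF1B fell by 0.81 and NCF1C by 0.84 on the log2 scale (limma adjusted p = 0.00733 and 0.0036). These 3 were the members called, all lower, where 0.835% of all genes were called lower, 0.256% higher and 1.09% either way. NCF1 and NCF1C did not overlap between the 7 SORL1-KO and 7 WT libraries, while NCF1B overlapped by a single SORL1-KO library, replicate 7, at 102.48 TPM, against a lowest WT value of 102.35 TPM. Over all genes, 0.613% did not overlap. As 1 summed signal the copies fell by 0.80 (limma adjusted p = 0.00171), and the exact permutation test gave an adjusted p of 0.00155, from the smallest p this test can give with 7 libraries against 7. The other 6 members had log2 fold changes from -0.25 for CYBB to 0.00 for RAC1, none called, and CYBA, CYBB and RAC2 had an unadjusted p below 0.05, as 10.8% of all genes did.

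The call in SORL1-KO, more than the size of the change, depended on a covariate. With a score of stromal and endothelial markers in the fit, NCF1 was at -0.62 (limma adjusted p = 0.104), NCF1B at -0.62 (0.225) and NCF1C at -0.64 (0.171), and no member was called. The 11 stromal and endothelial markers summed to between 146 and 424 TPM in SORL1-KO, against 189 to 3198 TPM in WT. The 10 monocyte markers summed to 257 to 1108 TPM in SORL1-KO and 367 to 3879 TPM in WT, with a median log2 change of -0.27 and none called, and their part was not tested. The call held without the 3 libraries that stood apart, where NCF1 changed by -0.79 (limma adjusted p = 0.00163).

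SORL1-A528T, a missense change in the same gene, gave intermediate levels. NCF1 averaged 261 ± 49.7 TPM in SORL1-A528T and 357 ± 43.7 TPM in WT (SD, n = 7 each), a log2 fold change of -0.46 (95% interval -0.73 to -0.20) that limma did not call (adjusted p = 0.169). All 7 SORL1-A528T libraries lay below the WT mean for NCF1, yet replicate 4, at 342 TPM, was within the WT range. None of the 9 members was called by limma, where 0.0471% of all genes were (0.0269% higher and 0.0202% lower), and 3 (NCF1, NCF1B and NCF1C) had an unadjusted p below 0.05, as 5.95% of all genes did. For the summed copies, limma gave -0.48 with an adjusted p of 0.189, whereas the exact permutation test, adjusted over 8 contrasts rather than over all genes, gave 0.00583. SORL1-KO was set directly against SORL1-A528T as well: NCF1 changed by -0.30 (95% interval -0.57 to -0.03, limma adjusted p = 1), and no member of the 9 was called, where 0.0942% of all genes were (0.0337% higher and 0.0606% lower). NCF1 and NCF1C had an unadjusted p below 0.05 there, as 2.24% of all genes did. The summed copies had an adjusted p of 0.0765 in the exact permutation test, which does not use the replicate numbers. Replicate numbers paired the libraries in this comparison, and when that number was blocked and only these lines were fitted, NCF1C was called (-0.38, limma adjusted p = 0.0135) as the only member.

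The 2 SNP lines had 2 libraries each and gave no call among the members. NCF1 changed by -0.44 in CD33-SNP (95% interval -0.84 to -0.04, limma adjusted p = 1.00) and by -0.27 in INPP5D-SNP (95% interval -0.67 to 0.13, limma adjusted p = 0.675). Across all genes limma called 0% in CD33-SNP, with 621 genes (4.18%) at an unadjusted p below 0.05, and 0.0337% in INPP5D-SNP (0.00673% higher and 0.0269% lower). Of the members, NCF1 and NCF1C had an unadjusted p below 0.05 in CD33-SNP and none did in INPP5D-SNP, where 7.32% of all genes did.

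The group means compared between TREM2-KO and the SORL1 lines use no library of TREM2-R47H or WT. The limma fit takes its spread from all 40 libraries, TREM2-R47H and WT included, while the exact permutation test uses the 2 groups alone. NCF1 averaged 391 ± 52.3 TPM in 8 TREM2-KO libraries and 210 ± 25.6 TPM in 7 SORL1-KO libraries (SD), a log2 fold change of 0.89 ± 0.13 (SE, limma adjusted p = 8.541e-06). NCF1B rose by 0.98 and NCF1C by 1.00 (limma adjusted p = 3.867e-05 and 1.98e-05). No TREM2-KO library overlapped a SORL1-KO library in any of these 3 genes, which were the members called, where 3.51% of all genes were called higher, 3.38% lower and 6.89% either way. Over all genes, 1.99% did not overlap. The summed copies had an adjusted p of 0.00124 in the exact permutation test from the smallest p this test can give with 8 libraries against 7. With the stromal score as a covariate NCF1 remained called at 0.88 (limma adjusted p = 8.38e-06), and stromal markers summed to 194 to 465 TPM in TREM2-KO and 146 to 424 TPM in SORL1-KO. Monocyte markers summed to 456 to 2697 TPM in TREM2-KO and 257 to 1108 TPM in SORL1-KO, and their part in the difference was not tested.

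Against SORL1-A528T the differences were smaller. NCF1 averaged 391 ± 52.3 TPM in 8 TREM2-KO libraries and 261 ± 49.7 TPM in 7 SORL1-A528T libraries (SD), and rose by 0.59 ± 0.13 on the log2 scale (SE, limma adjusted p = 0.00424). NCF1B rose by 0.71 and NCF1C by 0.62 (limma adjusted p = 0.00456 and 0.0114). They were again the 3 members called, where 1.23% of all genes were called higher, 2.23% lower and 3.46% either way. NCF1 overlapped between the lines and NCF1B and NCF1C did not, where 0.996% of all genes did not overlap. The monocyte markers summed to 456 to 2697 TPM in TREM2-KO and 292 to 1860 TPM in SORL1-A528T, with a median log2 change of 0.58 beside 0.02 over all genes and 1 of 10 called higher, and their part was not tested. Both comparisons use the same TREM2-KO libraries.

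**Figure D3:**
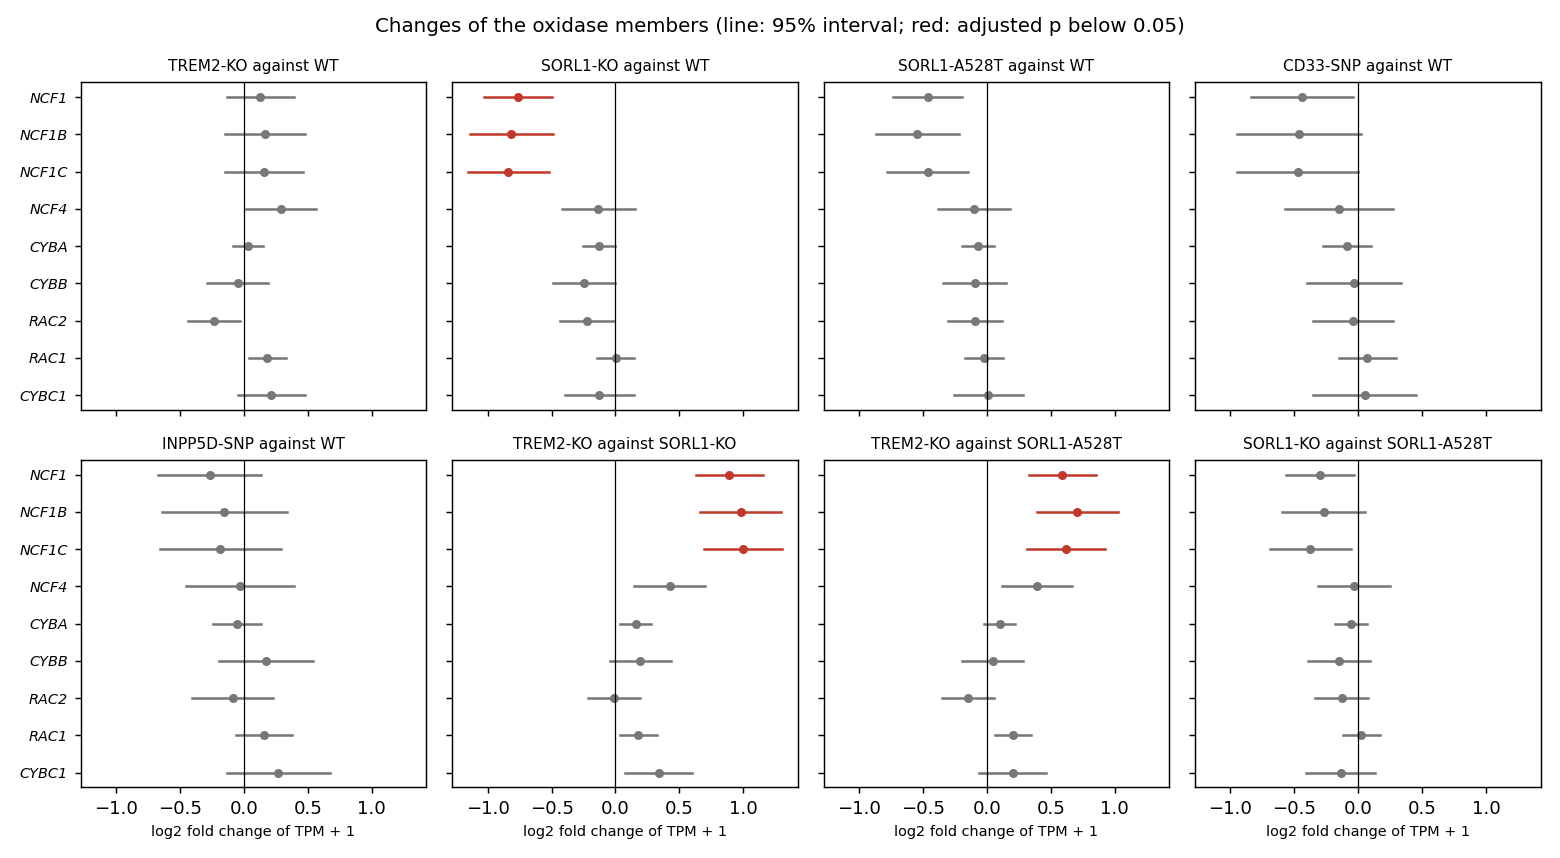
Log2 fold change of TPM + 1 (horizontal axes) for the 9 members in the 8 comparisons without TREM2-R47H, with points for the limma estimate and lines for its 95% interval, red where the adjusted p is below 0.05. The 3 NCF1 rows are the red ones, to the left in SORL1-KO against WT and to the right in TREM2-KO against SORL1-KO and SORL1-A528T.

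NCF4 encodes p40phox, which binds a membrane lipid of phagosomes, and it differed from NCF1 across the lines. NCF4 had 145, 163 and 228 TPM as the lowest, median and highest of the TREM2-KO libraries, 64.1, 73.3 and 85.1 TPM in TREM2-R47H, 96.6, 115 and 212 TPM in SORL1-KO, 95.1, 127 and 201 TPM in SORL1-A528T, and 129, 141 and 157 TPM in WT. TREM2-R47H lay below every other library, while SORL1-KO and SORL1-A528T overlapped WT. In SORL1-KO against WT, NCF4 changed by -0.13 (95% interval -0.42 to 0.15, limma adjusted p = 0.811), an interval that does not reach the NCF1 value of -0.76. In TREM2-KO against SORL1-KO, NCF4 was 0.42 apart with a limma adjusted p of 0.05004, just outside the threshold. The highest NCF4 values of TREM2-KO, SORL1-KO and SORL1-A528T (228, 212 and 201 TPM) were all in the libraries that stood apart. Without these, NCF4 was called in TREM2-KO against SORL1-KO (0.49, limma adjusted p = 0.0023) and against SORL1-A528T (0.44, limma adjusted p = 0.0119), which made 4 members called in each. In SORL1-KO against WT, NCF4 then changed by -0.26 (limma adjusted p = 0.286) and NCF1 by -0.79.

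Of 10 listed genes of the wider NOX family and its partners, NOXA1 alone passed the filter, with group means from 1.69 TPM in TREM2-R47H to 3.04 TPM in CD33-SNP. NOX4, which was not kept, averaged 2.59 TPM in INPP5D-SNP (1.41 and 3.77 TPM) and at most 0.88 TPM in any other group. WT libraries reached 2.08 TPM, so the 2 groups overlapped. The 11 stromal and endothelial markers summed to 834 to 2196 TPM in INPP5D-SNP and 189 to 3198 TPM in WT, and their part was not tested.

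CYBB and CYBA, the membrane core, had the highest TPM of the set. CYBA averaged 1433 ± 106 TPM in TREM2-KO, 1094 ± 72.5 in TREM2-R47H, 1286 ± 127 in SORL1-KO, 1334 ± 79.7 in SORL1-A528T and 1402 ± 89.0 in WT (SD, n = 8 for TREM2-KO and n = 7 for the others). CYBB averaged 948 ± 182, 842 ± 196, 819 ± 88.2, 914 ± 143 and 971 ± 104 TPM in the same 5 groups and with the same n. Every group overlapped its neighbour in the order of levels for both genes. CYBB was highest in replicates 5 and 6 in all 4 lines with 7 or 8 edited libraries, for example 1207 and 1236 TPM in TREM2-KO, where the other 6 had 761 to 970 TPM, and 1113 and 1119 TPM in TREM2-R47H, where the other 5 had 653 to 839 TPM. No comparison without TREM2-R47H called CYBB or CYBA in the fit of all libraries. In SORL1-KO against WT, CYBB changed by -0.25 (95% interval -0.491 to -0.00102) and CYBA by -0.13 (95% interval -0.253 to -0.00262).

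RAC2 is the RAC GTPase of blood cells and RAC1 the widely expressed one, and either can activate the oxidase. RAC2 had 146, 237 and 268 TPM as the lowest, median and highest in TREM2-KO, 200, 216 and 221 TPM in TREM2-R47H, 161, 232 and 254 TPM in SORL1-KO, 171, 256 and 278 TPM in SORL1-A528T, and 246, 260 and 271 TPM in WT. The lowest value of TREM2-KO, SORL1-KO and SORL1-A528T each came from the library that stood apart. RAC1 averaged 441 ± 34.5 TPM in TREM2-KO, 337 ± 38.9 in TREM2-R47H, 390 ± 38.4 in SORL1-KO, 382 ± 15.6 in SORL1-A528T and 388 ± 31.6 in WT (SD, n = 8 for TREM2-KO and n = 7 for the others). All 8 TREM2-KO libraries had more RAC1 than the mean of WT, by 0.18 on the log2 scale (95% interval 0.04 to 0.32), and limma did not call it (adjusted p = 0.239). RAC1 lies on chromosome 7 as NCF1 does, but at chr7:6374523-6403977, on the short arm.

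CYBC1 encodes the chaperone EROS, which is needed for gp91phox protein to mature. It averaged 105 ± 17.7 TPM in TREM2-KO, 63.4 ± 13.3 in TREM2-R47H, 83.1 ± 17.3 in SORL1-KO, 91.5 ± 18.3 in SORL1-A528T and 89.7 ± 9.43 in WT (SD, n = 8 for TREM2-KO and n = 7 for the others). In INPP5D-SNP both libraries, at 107 and 109 TPM, lay above all 7 WT libraries, which reached 101 TPM, and 17.2% of all genes did not overlap between these 2 and 7 libraries. For CYBC1 limma did not call the change of 0.27 (adjusted p = 0.675). In TREM2-KO against SORL1-KO, all 8 TREM2-KO libraries lay above the SORL1-KO mean, with a change of 0.34 that was not called (limma adjusted p = 0.117).

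**Figure D4:**
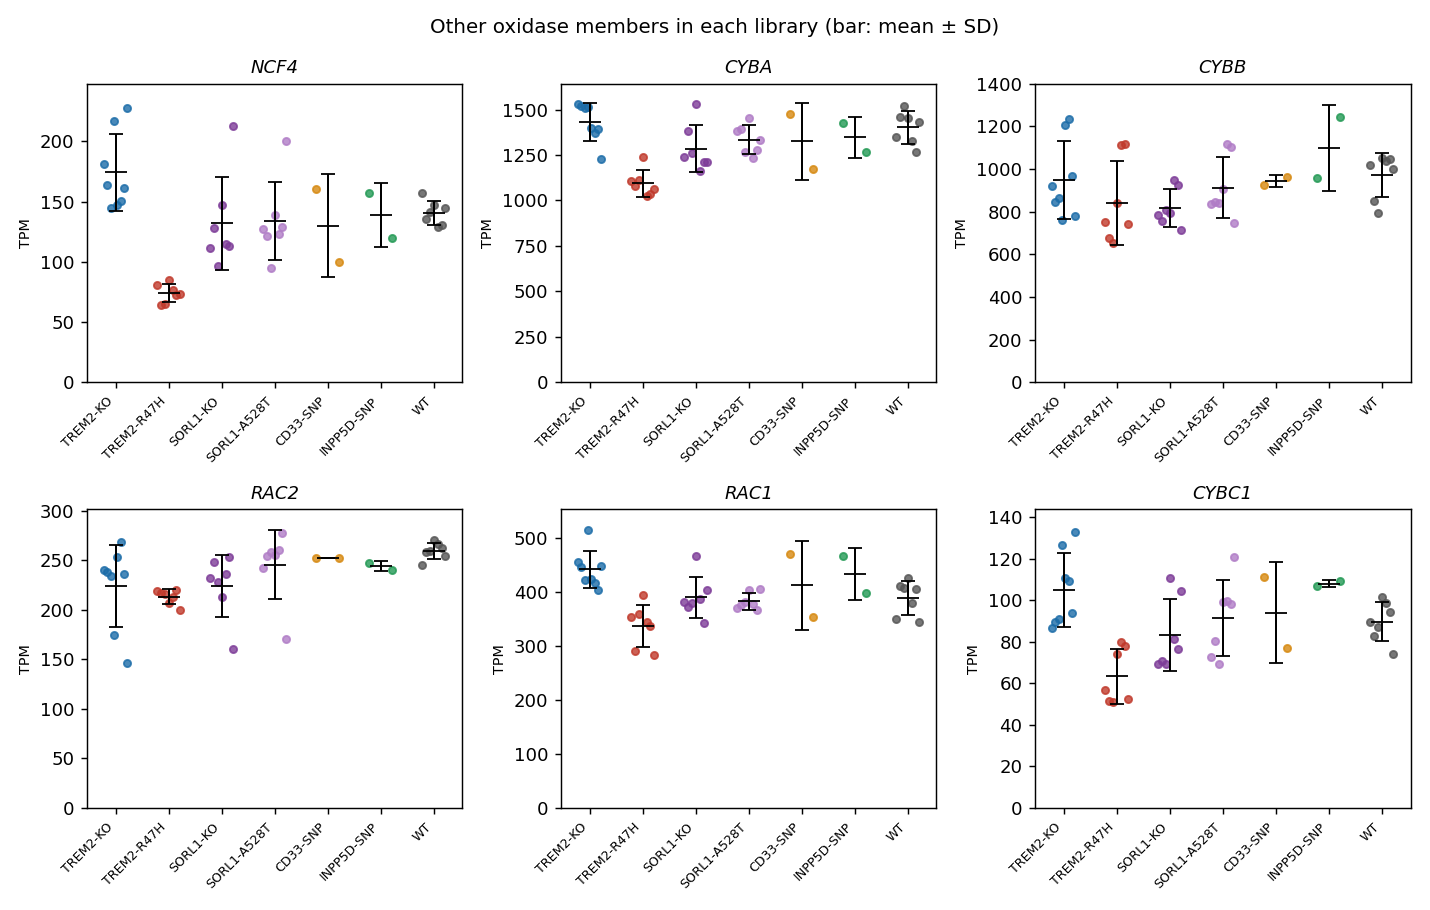
TPM of NCF4, CYBA, CYBB, RAC2, RAC1 and CYBC1 (vertical axes, linear from 0) in each library of the 7 groups, with points for libraries and bars for the mean ± SD. NCF4 separates TREM2-R47H from the other groups, while CYBB in TREM2-R47H overlaps every other group.

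Over the 40 libraries, the members tracked NCF1 unequally; these values describe libraries that share lines and scaling, and carry no test. Pearson's r of log2(TPM + 1) with NCF1 was 0.98 for NCF1B, 0.99 for NCF1C, 0.81 for NCF4, 0.77 for CYBA, 0.76 for CYBC1, 0.69 for RAC1, 0.49 for CYBB and 0.32 for RAC2. With the group means removed, r was 0.90 for NCF1B, 0.91 for NCF1C, 0.53 for CYBC1, 0.51 for CYBB, 0.40 for RAC1, 0.27 for NCF4, 0.23 for RAC2 and 0.15 for CYBA. The values over all libraries include TREM2-R47H, whose NCF1 level chose the set. The 5 kept genes most like NCF1 in level were SERPINB9 (r = 0.938), NOTCH1 (0.928), ATP2A3 (0.924), RAB24 (0.920) and GLTP (0.920), over 40 libraries. ATP2A3, a calcium pump of the endoplasmic reticulum, averaged 78.4 TPM in TREM2-KO, 22.2 in TREM2-R47H, 37.3 in SORL1-KO, 45.3 in SORL1-A528T and 68.1 TPM in WT. By deviations from group means the 5 most like were SKI (r = 0.827), PIK3AP1 (0.802), NCKAP5L (0.795), SSR1 (0.791) and RAB7A (0.786).

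The neighbours of NCF1 on the chromosome were measured as well. Of 20 listed genes of 7q11.23, 18 were kept, with starts at -1.80 Mb to 0.759 Mb relative to that of NCF1. None of the 18 was called by limma in SORL1-KO against WT, where 1.09% of all genes were, or in TREM2-KO against SORL1-KO, where 6.89% were, so a count of 0 is near the background. In SORL1-KO against WT the median change of the 18 was -0.08, beside -0.03 over all genes, and in TREM2-KO against SORL1-KO it was 0.02, beside 0.03. GTF2I, whose start lies at -0.116 Mb, changed by -0.10 in SORL1-KO against WT and by -0.10 in TREM2-R47H against WT. GTF2IRD2, at 0.0222 Mb, changed by 0.07 in SORL1-KO and by -0.25 in TREM2-R47H. HIP1, at the far end of the window, was the neighbour with the largest change, -1.38 in TREM2-R47H and -0.90 in SORL1-KO (limma adjusted p = 0.149, not called). STAG3L3, at the other end, stood at -0.30 in TREM2-R47H. On chromosome 22, where NCF4 and RAC2 lie, 8 of 14 listed neighbours were kept, and KCTD17 was called in TREM2-KO against SORL1-KO (0.28, limma adjusted p = 0.0216).

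**Figure D5:**
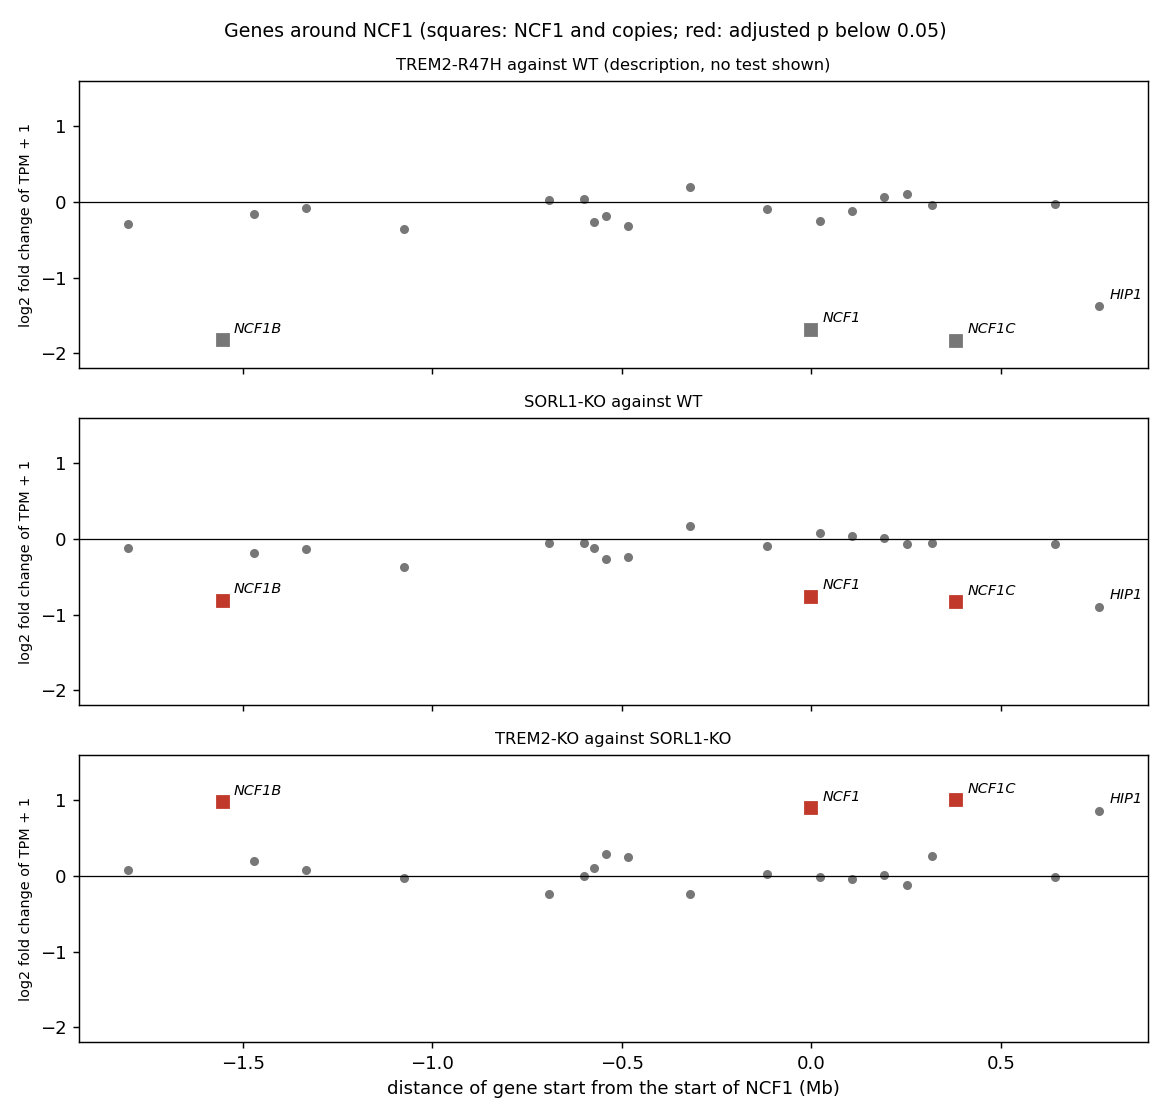
Log2 fold change of TPM + 1 (vertical axes) of 18 kept genes and the 3 NCF1 genes against the distance of their start from that of NCF1 in Mb (horizontal axis), in 3 comparisons, with red for an adjusted p below 0.05 in the lower 2. The squares of NCF1, NCF1B and NCF1C lie apart from the genes between them, and HIP1 alone of the neighbours lies near them.

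NCF1 and CYBB are classic targets of PU.1, the ETS factor encoded by SPI1 that directs macrophage development. RefSeq promoter sequences (GRCh38.p14, 250 bases before to 50 after the start) were matched for 4 members, NCF1, CYBA, CYBB and CYBC1. The core motif GAGGAA, searched on both strands, was present in NCF1 and CYBB and in 27.9% of all 35116 promoters. Its reverse complement, in capitals, is shown in 120 bases of each; it starts 45 bases before the RefSeq start in NCF1 and 48 before it in CYBB.
NCF1, chr7:74773872-74773991, plus strand: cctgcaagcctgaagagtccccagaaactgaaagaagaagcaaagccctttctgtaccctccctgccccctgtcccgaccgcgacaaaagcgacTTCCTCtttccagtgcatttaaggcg
CYBB, chrX:37779917-37780036, plus strand: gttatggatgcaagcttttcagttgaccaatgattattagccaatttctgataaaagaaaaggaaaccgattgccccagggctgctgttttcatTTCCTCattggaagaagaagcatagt
A match is a description of these letters only. SPI1 itself averaged 870 ± 77.0 TPM in TREM2-KO, 770 ± 52.7 in TREM2-R47H, 828 ± 62.7 in SORL1-KO, 872 ± 51.0 in SORL1-A528T and 867 ± 41.1 in WT (SD, n = 8 for TREM2-KO and n = 7 for the others). Outside TREM2-R47H it was called in no comparison, and its change was -0.07 in SORL1-KO against WT and 0.07 in TREM2-KO against SORL1-KO. In TREM2-R47H against WT, from which no test is read, SPI1 stood at -0.17. None of the 10 kept transcription factors listed for oxidase genes was called in SORL1-KO against WT. In TREM2-KO against SORL1-KO 1 was, CEBPA, a myeloid factor, which fell by 0.70 (limma adjusted p = 0.0395) while NCF1 rose.

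Outside TREM2-R47H, the listed activator and signalling genes of the oxidase were called about as often as all genes. Of 28 listed activators and signalling genes, all kept, none was called by limma in SORL1-KO against WT, where 1.09% of all genes were, or in TREM2-KO against WT, where 1.61% were. In TREM2-KO against SORL1-KO 1 rose and 1 fell, where 6.89% of all genes were called: PRKCD, a protein kinase C that phosphorylates p47phox, averaged 152 ± 9.08 TPM in TREM2-KO and 121 ± 7.89 TPM in SORL1-KO (0.33, limma adjusted p = 0.00249), and RAP1A, a GTPase found with the membrane core, fell by 0.18 (limma adjusted p = 0.0299). Of 10 kept receptors and adaptors that trigger the burst, 2 rose there. ITGAM, the integrin CD11b, averaged 130 ± 14.5 TPM in TREM2-KO and 77.2 ± 13.05 TPM in SORL1-KO (SD), a change of 0.76 (limma adjusted p = 0.000143). CARD9, the adaptor of fungal receptors, rose by 0.38 (limma adjusted p = 0.00731). PRKCD, ITGAM and CARD9 also rose in TREM2-KO against SORL1-A528T, by 0.25, 0.59 and 0.35 (limma adjusted p = 0.0422, 0.00512 and 0.0274). Medians over these lists in TREM2-KO against SORL1-KO were 0.07 for activators and 0.33 for receptors, beside 0.03 over all genes.

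Of the 9 listed inhibitors and GTPase regulators, PTPN6 alone was called against WT outside TREM2-R47H. PTPN6 encodes the phosphatase SHP-1, which dampens signalling from activating receptors, and averaged 248 ± 23.3 TPM in TREM2-KO, 236 ± 16.8 in SORL1-KO and 298 ± 10.0 TPM in WT (SD, n = 8, 7 and 7). It fell by 0.27 in TREM2-KO and by 0.34 in SORL1-KO (limma adjusted p = 0.0341 and 0.0145), while NCF1 was called in SORL1-KO and not in TREM2-KO. ARHGDIB, which holds RAC proteins inactive in the cytosol, rose by 0.20 in TREM2-KO against SORL1-KO (limma adjusted p = 0.0108). Among 15 kept enzymes that use or remove superoxide and peroxide, the gene of catalase, CAT, was the one called outside TREM2-R47H. It fell by 4.80 in SORL1-KO and by 1.29 in TREM2-KO against WT (limma adjusted p = 2.946e-16 and 0.00259).

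In TREM2-R47H against WT the same lists are given as counts only, beside the 11.4% of all genes called (8.77% lower and 2.63% higher). Among activators 13 of 28 were lower, among inhibitors 5 of 9, among receptors 3 of 10, among enzymes 1 of 15, and among transcription factors 0 of 10, with none higher in any of these lists. The median change was -0.18 for activators, -0.25 for inhibitors and -0.53 for receptors, beside -0.06 over all genes. PTPN6 had 188 ± 26.3 TPM in TREM2-R47H and 298 ± 10.0 TPM in WT, and CARD9 43.7 ± 4.16 TPM in TREM2-R47H and 67.5 ± 7.51 TPM in WT (SD, n = 7 each).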

How the data were processed

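The deposited values were TPM per gene, 1 column per library, made by the authors; RSEM 1.3.1, STAR 2.7, cutadapt 1.18 and DESeq2 (no version) come from the submitters' processing notes. Build and annotation: not given in the sources used here; positions come from GENCODE 29 by Ensembl ID. Reads were pairs of 150 bases, per the labels' protocols. Columns summed to 999999.15 to 1000000.76, so no count model was possible, and the library spread sets the precision.

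Members and gene lists were chosen with earlier results of these data known. Symbols were found for 94.2% of gene IDs. Genes at 1 TPM or more in at least 7 libraries were kept, and log2(TPM + 1) was fitted with limma 3.58.1 in R 4.3.3, with trended and robust variance, over 40 libraries and 7 group means. Two-sided p-values had Benjamini-Hochberg adjustment across 14855 genes, and a gene with an adjusted p below 0.05 is called. A fold change on this scale understates the change of low genes. The summed copies and the NCF1 share had exact permutation tests over all splits of 2 groups, adjusted over 8 contrasts. The splits ignored replicate numbers, also in contrasts where these pair the libraries. The limma fit was tested on simulated data. Genes were named by rule: all members, the 5 genes most correlated with NCF1 by each of 2 measures, and from each list up to 4 called genes with the lowest adjusted p and at least 5 TPM in a group; SPI1, NOXA1, NOX4, GTF2I and GTF2IRD2 were named besides, after their values were seen.

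A replicate number was taken to pair libraries where residuals of every pair of the same number correlated above 0.1. This held for TREM2-R47H against WT (0.14 to 0.28), TREM2-KO against WT (0.11 to 0.31) and SORL1-KO against SORL1-A528T (0.31 to 0.78), not for the other 6 contrasts. Alternatives included other pseudocounts (0.1 and 5 TPM), filters (none and 5 TPM), median-ratio and quantile scaling, fits of 2 groups, the replicate block, a stromal marker score (mean log2(TPM + 1)) as covariate, dropping each CD33-SNP or INPP5D-SNP library, and 1 row for the summed copies. Leaving out 3 libraries and averaging replicates 5 and 6 were added after seeing the data. Median-ratio scaling moved the median change over all genes by less than 0.1 in every contrast. That median was not computed for quantile scaling.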

Additional observations from a re-analysis of the deposited data

Results flagged for a closer look

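Members were checked in 60 groups of 7 or 8 libraries for a library far from the rest of its group, and 5 were found, where chance gives about 1 group in 20. In replicate 7 of SORL1-A528T, a library that also stands apart over all genes, NCF4 was 200.63 TPM, against 95.11 to 138.72 TPM in the other 6 libraries. RAC2 was 170.89 TPM in the same library, against 242.74 to 277.93 TPM in the others. The NCF1 share of the summed copies was 48.644% there, against 52.8% to 55.2%. In replicate 4 of TREM2-R47H, CYBA was 1239.73 TPM, against 1023.17 to 1113.02 TPM in the others. In replicate 4 of TREM2-KO, RAC1 was 514.26 TPM, against 403.52 to 454.96 TPM in the others.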

How the results depend on the processing

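No called change of a member reversed under any alternative run. Of the single members' values, 1263 kept their side of the threshold, 29 gained a call and 4 lost one. The 4 were NCF1, NCF1B and NCF1C in SORL1-KO against WT and CYBC1 in TREM2-R47H against WT. All 4 were lost with the stromal score as a covariate, and no test is read from the TREM2-R47H comparison. The number of members called kept within 1.5 times in 145 alternatives and moved in 8. In SORL1-KO against WT it was 0 with the stromal score. With the summed copies as 1 row it was 1 of 7 rows in SORL1-KO against WT, TREM2-KO against SORL1-KO and TREM2-KO against SORL1-A528T, by construction. With the replicate block in the fit of all libraries it was 2 in SORL1-A528T against WT, 8 in TREM2-KO against SORL1-KO and 5 in TREM2-KO against SORL1-A528T, contrasts whose numbers do not pair the libraries. With the block in the fit of 2 groups it was 1 in SORL1-KO against SORL1-A528T, where they do. The summed copies in SORL1-A528T against WT differed by -0.48 in both tests and passed the exact permutation test (adjusted p = 0.00583, over 8 contrasts) but not limma (0.189, over all genes). Leaving out each CD33-SNP or INPP5D-SNP library gave 0 members called in both lines against WT, 3 to 4 in TREM2-KO against SORL1-KO, where NCF4 was the fourth, and 6 to 7 in TREM2-R47H against WT. The NCF1 share stayed outside the threshold in 24 alternatives. Counts over gene lists stayed in 1036 and moved in 116. The lack of read counts limits precision for low genes, and 2 libraries limit the SNP lines.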
